A study of Arabidopsis thaliana with 12 samples.

Results

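Glutathione S-transferases (GSTs) of the plant-specific tau class and of the phi class were followed over floral induction in Arabidopsis inflorescences. The group holds 41 loci, 13 of the phi class (GSTF) and 28 of the tau class (GSTU), among 28327 loci on the array. Members were chosen by class from a fixed list of loci, and the family itself was selected on the measured log2 ratios of these same arrays over the 3 steps of the time course. The changes and calls given here for members are therefore a description of the values that brought the family to attention, without p-values. After a filter on dim probes 39 members remained, all 13 of the phi class and 26 of the tau class. GSTU2 (AT2G29480) and GSTU14 (AT1G27140) did not pass it.

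GSTs join the tripeptide glutathione to reactive or foreign compounds, and the conjugates are carried into the vacuole by transporters of the ABCC family. In plants the tau and phi classes are the large ones and include many of the enzymes that detoxify herbicides. Transcripts of many members rise quickly after pathogen attack, oxidative stress, wounding or chemical treatment, and a few members act as carriers or enzymes in the formation of secondary compounds such as anthocyanins and camalexin.

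All samples were inflorescences of plants that carried pAP1:AP1-GR in the ap1-1 cal-1 background. In this line the floral regulator APETALA1 (AP1), fused to the hormone-binding part of a glucocorticoid receptor and driven by the AP1 promoter, enters the nucleus when dexamethasone (DEX) is given, and the cauliflower-like heads of the ap1 cal double mutant then form flowers nearly in step. The 4 groups were day 0, before induction, and days 2, 4 and 8 of daily DEX treatment, each in 4 biologically independent sets of pooled plants. Per the methods of the study the day 0 plants received a mock solution and were collected at once, while the labels name DEX as the treatment of every sample. None of the samples was a mock-treated plant of a later day, so that development, DEX, and repeated handling cannot be told apart. Each of the 12 arrays of 2 colours carried 2 days of the same set, in 3 steps of 4 arrays each (day 0 with day 2, day 2 with day 4, day 4 with day 8). Neighbouring steps therefore share the extracts of day 2 or day 4, and a high value at day 2 enters 1 step with a positive and the next with a negative sign.

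The tissue labels were checked on marker genes. AP3, AG and SEP3, floral homeotic genes, were called higher at day 2 (log2 ratios of 5.41, 2.88 and 3.19). Of 5 leaf photosynthesis genes, none was called at any step, and of 4 tested anther and tapetum genes, 4 were called higher from day 4 to day 8. Among these AMS read 0.43, 0.27 and 5.14 in replicates 1, 3 and 4, with no value in replicate 2, so its call rests mainly on 1 array. Between 55.7% and 73.6% of probes were marked well above background in a channel. The arrays of replicates 3 and 4 of day 0 to day 2 had scanner files that did not match the deposited table, so detection at day 0 rests on 2 channels, against 6 at day 2, 8 at day 4 and 4 at day 8. All arrays of day 0 to day 2 lay on 1 slide that held no other step, so that slide and step cannot be told apart, while the 2 days of the step were compared within each array. Inflorescences are mixtures of cells, in which fewer cells of a type and less RNA per cell cannot be told apart.

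Most tested members were called higher by day 2 and again by day 8, and between these days more members were called lower than higher. A locus was called at an adjusted p below 0.05 over all probes (limma) together with a change of at least 1.8-fold, and values are log2 ratios of the later over the earlier day, each unit being a 2-fold change. From day 0 to day 2, 23 of 39 members were called higher and 4 lower, whereas of all 20906 loci tested 8.47% were called higher and 5.42% lower. From day 2 to day 4, 4 members were called higher and 16 lower, against 3.23% and 5.58% of all loci. From day 4 to day 8, 24 members were called higher and 0 lower, against 12.3% and 5.23%. The summed change from day 0 to day 8, which no single array measured, was called higher for 29 members and lower for 1, against 14.9% and 11.2% of loci. The fit did not pair the arrays of a set across steps, and its SE does not follow the spread of the sums between sets. The sums in sets 1 to 4 were 4.74, 0.57, 4.01 and 0.47 for GSTU1. For GSTU27, whose sum was also called higher, they were 1.15, 1.18, 0.84 and 0.91. GSTU1, GSTU3, GSTU9, GSTU10, GSTU15 and GSTU22, called higher by day 2, were above background on no channel of day 0. They passed the filter on dim probes only through later days, so that a rise was in part a condition of entry. GSTF13 passed only through day 8 and GSTF14 only through day 0. Since these contrasts chose the family and the filter let in such loci, nothing is read from the distance to the shares of all loci. Touch and wound response genes moved at the same steps. Of 9 such genes 6 were called higher and 1 lower by day 2, 2 higher and 3 lower by day 4, and 8 higher and 0 lower by day 8, and their part in the changes of the GSTs was not tested.

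**Figure D1:**
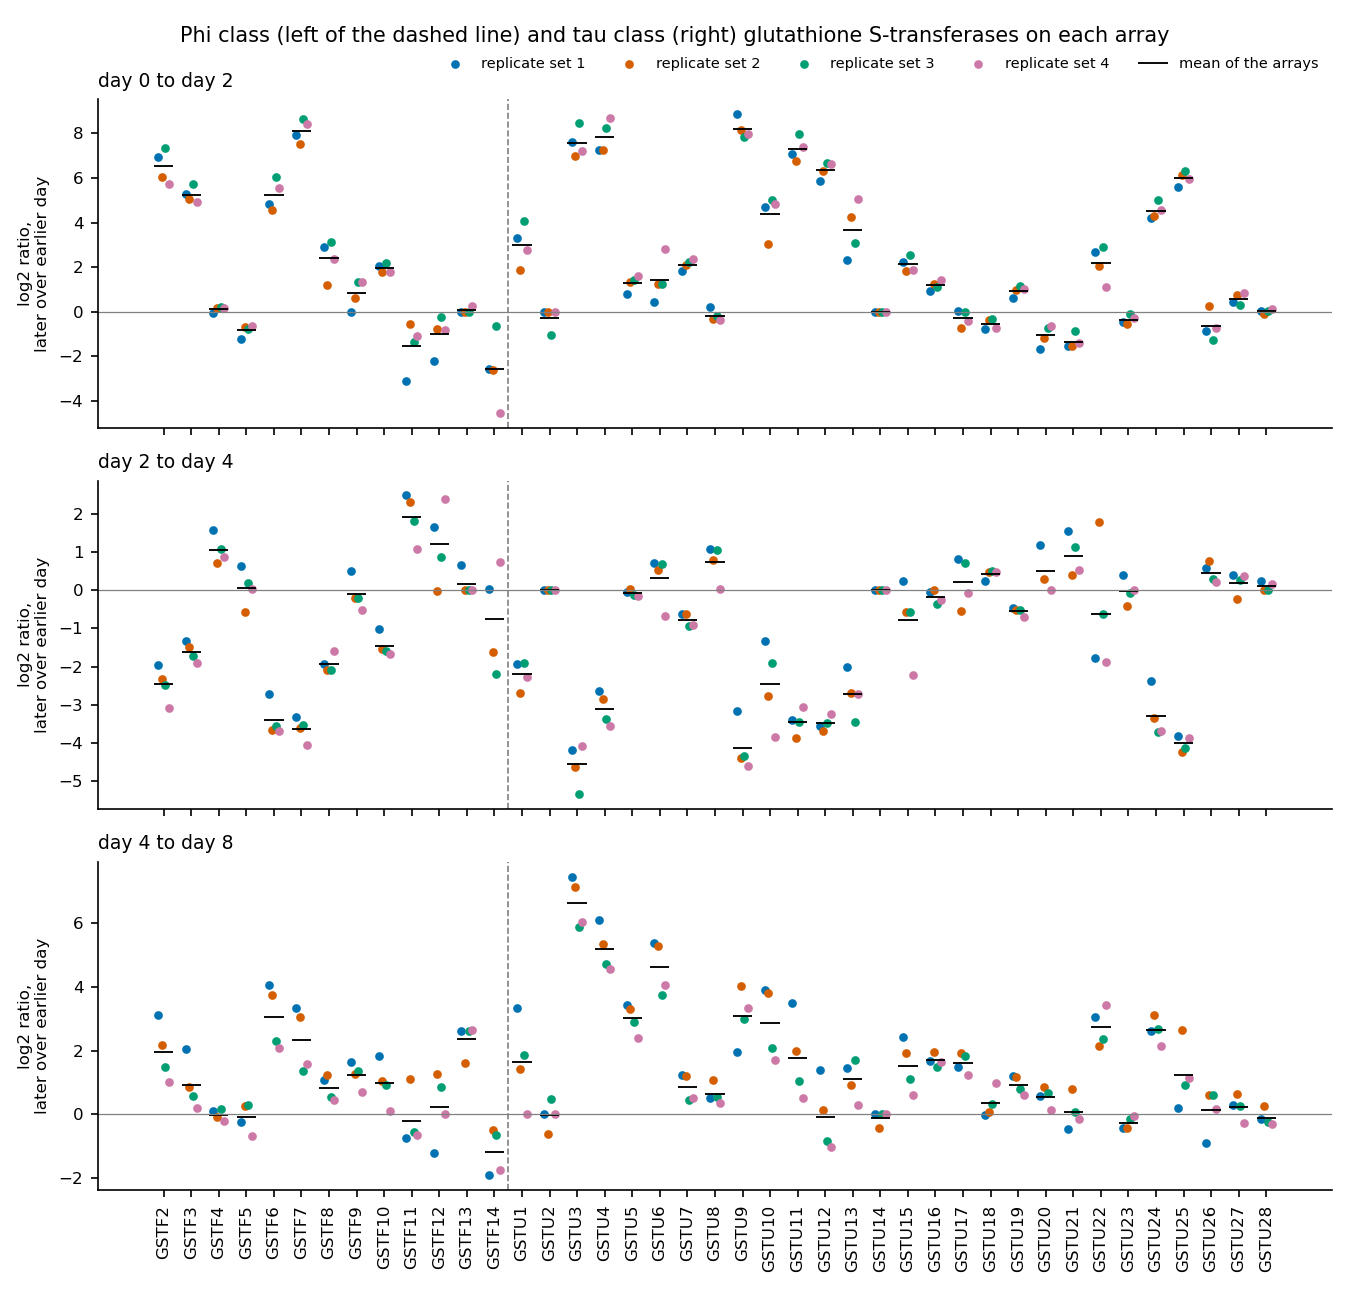
Log2 ratio of the later over the earlier day (vertical axis, 1 panel a step) for each of the 41 loci (horizontal axis), with 1 point an array coloured by replicate set and a black line at the mean. In the upper panel GSTF7, GSTU3, GSTU4 and GSTU9 stand above 7 on all 4 arrays, and in the middle panel the same loci lie below -2.

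The median over the tau class was 1.78 in the step to day 2, -0.59 in that to day 4 and 1.37 in that to day 8, and that over the phi class was 0.83, -0.76 and 0.91. Over all loci the medians were -0.10, 0.06 and -0.08. On single arrays of day 0 to day 2 the tau median ran from 1.36 to 1.82 and the phi median from 0.01 to 1.36, and on each of the 4 arrays tau exceeded phi. The tau median includes GSTU1, GSTU3, GSTU9, GSTU10, GSTU15 and GSTU22, for which a rise was in part a condition of entry. Without the filter on dim probes the medians of this step were 1.36 for tau and 0.83 for phi. With the scanner intensities of 10 arrays processed by normexp and loess they were 0.66 and 0.31. From day 2 to day 4 the phi median spread from -1.60 to 0.04 and the tau median from -0.81 to -0.26, so the classes overlapped. They overlapped also from day 4 to day 8, with 0.18 to 1.63 for phi and 0.60 to 1.67 for tau. By calls, 6 of 13 phi members were higher and 2 lower by day 2, compared with 17 and 2 of 26 tau members. By day 4 the calls were 3 higher and 6 lower in phi, and 1 higher and 10 lower in tau. By day 8 they were 7 and 17 higher, with none lower in either class. The difference between the classes was not tested.

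**Figure D2:**
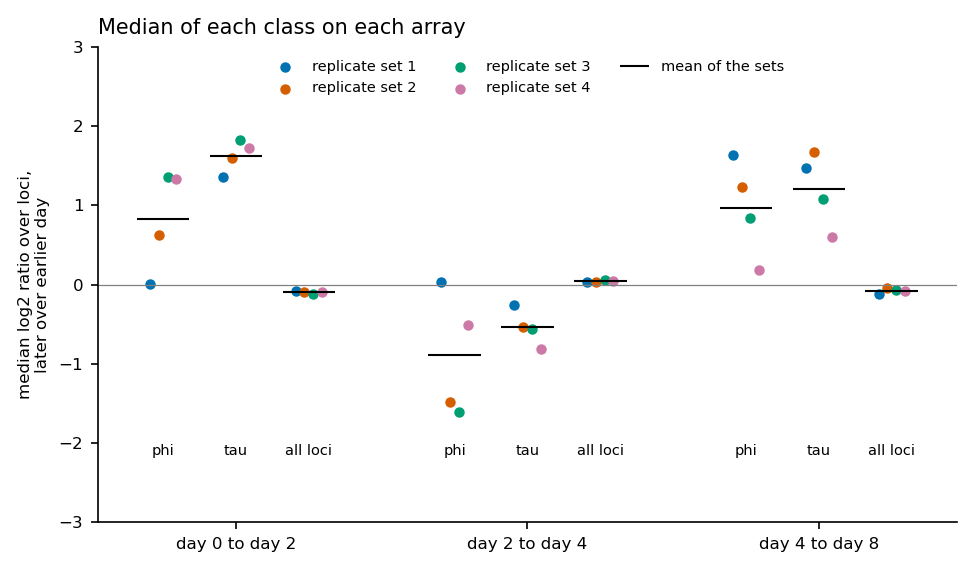
Median log2 ratio over the tested loci of the phi class, the tau class and all loci (vertical axis) at each step (horizontal axis), with 1 point an array and a line at the mean of the 4 sets. The medians over all loci stay close to 0, between -0.12 and 0.06, while the phi medians run from 0.01 to 1.36 in the first step and the tau medians from 1.36 to 1.82.

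Of the phi class, the loci with the steepest course were GSTF2 (AT4G02520), GSTF3 (AT2G02930), GSTF6 (AT1G02930) and GSTF7 (AT1G02920). GSTF6 acts in the synthesis of camalexin, an indole phytoalexin, and GSTF2 binds indole compounds including camalexin and auxin. For GSTF7 the arrays of replicates 1 to 4 gave 7.94, 7.51, 8.64 and 8.42 from day 0 to day 2 (mean 8.13 ± 0.29, SE of the fit, n = 4). Each SE given for a member is that of the fit, in which the 3 steps share 1 estimate of the spread. It can lie under the SE of the 4 arrays of a step alone, and n counts these arrays. GSTF7 then gave -3.32, -3.62, -3.53 and -4.05 by day 4, and 3.35, 3.05, 1.36 and 1.57 by day 8. All arrays of a step thus pointed the same way, and the last step was larger in sets 1 and 2 than in sets 3 and 4.

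GSTF6 rose by 4.84, 4.58, 6.05 and 5.54 by day 2 (5.25 ± 0.31, SE, n = 4). By day 4 it read -2.71, -3.66, -3.57 and -3.69, and by day 8 it read 4.07, 3.75, 2.31 and 2.08. As in GSTF7, sets 1 and 2 were above sets 3 and 4 in the last step. GSTF2 rose by 6.93, 6.06, 7.36 and 5.74 by day 2 (6.52 ± 0.25, SE, n = 4), with -1.95, -2.33, -2.49 and -3.09 at the second step and 3.12, 2.19, 1.50 and 1.00 at the third. GSTF3 followed with 5.29, 5.08, 5.73 and 4.93, then -1.33, -1.48, -1.73 and -1.91, then 2.04, 0.86, 0.57 and 0.18. The last of these steps was called (0.91 ± 0.20, SE, n = 4), though its 4 arrays had an SD of 0.80. Without replicate 1 this step came to 0.58 and without replicate 2 to 0.81, and was not called. GSTF6 and GSTF7, and likewise GSTF2 and GSTF3, are close copies of each other, and whether their probes cross-hybridised was not tested.

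Of 4 camalexin pathway genes 3 were called higher by day 2 (median 5.11), 4 lower by day 4 (median -3.48) and 3 higher by day 8 (median 1.92). PAD3, the last enzyme of the pathway, changed by 6.59, -4.72 and 3.51 in the 3 steps, and CYP71A13, which forms indole-3-acetonitrile, by 5.18, -3.62 and 1.31. CYP71A12, a close relative of CYP71A13, was called at the second step only (-3.34), with 0.67 and -0.20 in the others.

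GSTF8 (AT2G47730), a stress-inducible phi GST with a plastid form, rose by 2.91, 1.21, 3.15 and 2.39 on the 4 arrays of the first step (2.42 ± 0.23, SE, n = 4). It fell by 1.92, 2.09, 2.09 and 1.60 on those of the second. In the third it gave 1.06, 1.24, 0.54 and 0.45, which was not called. GSTF9 (AT2G30860) and GSTF10 (AT2G30870, also ERD13) are neighbours in the genome. GSTF10 was called at each step, with 2.05, 1.77, 2.18 and 1.79 by day 2, -1.01, -1.54, -1.60 and -1.66 by day 4, and 1.81, 1.03, 0.93 and 0.09 by day 8. The last value was 0.73 without replicate 1 and 0.84 without replicate 2, both not called. GSTF9, which has 2 probes, gave 0.01, 0.63, 1.36 and 1.33, then 0.49, -0.21, -0.20 and -0.51, and was called only at the third step with 1.63, 1.26, 1.35 and 0.70.

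The other phi members did not share this course. GSTF11 (AT3G03190) was lower at day 2 on each array (-3.08, -0.56, -1.35 and -1.07, mean -1.52 ± 0.37, SE, SD of the arrays 1.09) and higher at day 4 on each (2.49, 2.33, 1.83 and 1.08). GSTF11 has been linked to aliphatic glucosinolate synthesis. By day 8 its arrays disagreed in sign, with 1.11 in replicate 2 and -0.75 to -0.55 in the others. Of 9 glucosinolate core genes, 1 was called higher and 1 lower by day 2, 5 higher by day 4 (median 1.05) and 4 higher by day 8 (median 0.81). The gene called higher by day 2 was SOT17, with 2.13, -0.44 and 2.98 in the 3 steps. The one called lower was CYP83A1, an enzyme of the aliphatic branch, with -1.45, 1.35 and -0.53. MAM1, with the largest change of the list by day 4, gave -0.26, 2.02 and 0.27. GSTU20 (AT1G78370), a tau member also linked to glucosinolates, gave -1.66, -1.15, -0.71 and -0.65 by day 2, and this call was lost without replicate 1 (-0.81). GSTU13 (AT1G27130), which acts in the metabolism of indole glucosinolates, took the opposite course with 2.34, 4.26, 3.08 and 5.05 by day 2, -2.01, -2.69, -3.46 and -2.71 by day 4, and 1.45, 0.93, 1.71 and 0.30 by day 8. Its last call was lost in 5 of 13 alternative settings, over which the value lay between 0.32 and 1.42.

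GSTF12 (AT5G17220), known as TRANSPARENT TESTA 19, is needed to bring anthocyanins into the vacuole. Its arrays read -2.18, -0.78, -0.22 and -0.80 in the step to day 2, then 1.65, -0.01, 0.86 and 2.39, then -1.22, 1.25, 0.84 and 0.01. No step had the same sign on all arrays but the first. Only the second step was called (1.22 ± 0.43, SE, n = 4), and the call was lost in 10 of 13 alternative settings, the value lying between 0.66 and 1.73 over the 13. Of 7 anthocyanin genes tested, 3 were called lower by day 2, 1 higher by day 4, and 1 higher and 1 lower by day 8. Among them UF3GT, a glycosyltransferase of the anthocyanin pathway, gave -1.62 and then 1.83, and LDOX, which forms anthocyanidins, gave -1.84 by day 2.

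GSTF13 (AT3G62760, listed as ATGSTF13 in the gene table) was not well above background at day 0 or day 2, and at day 4 it was so on 1 of 8 channels. From day 4 to day 8 the ratios were 2.61, 1.61, 2.62 and 2.64, which rest on a day 4 signal mostly at background. All 4 channels of day 8 were above it, and day 8 was at least 2.58-fold higher than day 0. Of its ratios in the deposited table, 6 were exactly 0. GSTF14 (AT1G49860) was the one member whose summed change was called lower. That call was lost when the scanner intensities of 10 arrays were processed by normexp and loess, where 0 members were called lower. GSTF14 read -2.55, -2.61, -0.64 and -4.53 by day 2 (-2.58 ± 0.57, SE, n = 4, SD of the arrays 1.59), then 0.04, -1.61, -2.20 and 0.75, then -1.91, -0.50, -0.64 and -1.74. At day 8 GSTF14 was above background on no channel, and its level there was at least 8.08-fold lower than at day 0, a bound set by the weakest signals marked as measured. GSTF4 (AT1G02950) was called at the second step with 1.58, 0.72, 1.09 and 0.87. GSTF5 (AT1G02940) was called at none, and its fitted changes were -0.82, 0.07 and -0.09.

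The longest run of neighbouring members is GSTU1 to GSTU6, with GSTU7 close by. GSTU4 (AT2G29460) and GSTU3 (AT2G29470) had the widest changes of this run. The 4 arrays of GSTU4 gave 7.28, 7.25, 8.23 and 8.68 by day 2 (7.86 ± 0.27, SE, n = 4), -2.65, -2.86, -3.36 and -3.57 by day 4, and 6.11, 5.34, 4.72 and 4.55 by day 8. GSTU3 gave 7.63, 7.01, 8.47 and 7.23 (7.58 ± 0.30, SE, n = 4), then -4.19, -4.63, -5.34 and -4.09, then 7.46, 7.14, 5.89 and 6.03. As GSTU3 was above background on no channel of day 0, its rises are given as bounds from the processed signals. They were at least 37.3-fold for the first step and at least 152-fold to day 8. Over 13 alternative settings the first step of GSTU3 lay between 2.89 and 7.73, the lowest being under the 5.22 of that bound. In both loci the last step exceeded the fall by day 4 in each of the 4 sets.

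GSTU6 (AT2G29440) and GSTU5 (AT2G29450) kept most of their rise for the last step. GSTU6 gave 0.45, 1.23, 1.26 and 2.80 by day 2, 0.71, 0.54, 0.68 and -0.68 by day 4, and 5.38, 5.28, 3.75 and 4.06 by day 8. Without the arrays of replicates 3 and 4 of day 0 to day 2 the first of these steps was 0.84 and not called. GSTU5 gave 0.80, 1.35, 1.43 and 1.59, then -0.05, 0.03, -0.14 and -0.15, then 3.45, 3.29, 2.90 and 2.39. GSTU7 (AT2G29420) rose by 1.81, 2.09, 2.21 and 2.38 by day 2, fell by 0.63, 0.63, 0.94 and 0.92 by day 4 without a call, and rose by 1.24, 1.20, 0.46 and 0.51 by day 8. The last call of GSTU7 was lost without replicate 1 (0.69) and without replicate 2 (0.73). GSTU1 (AT2G29490) was weak, with no channel above background at day 0 and 3 of 6 at day 2. It gave 3.32, 1.86, 4.07 and 2.76, then -1.93, -2.70, -1.91 and -2.29, then 3.35, 1.41, 1.85 and 0.00. By the processed signals its first step amounts to at least 1.68-fold. Over 13 alternative settings that step of GSTU1 lay between 0.33 and 3.17, the lowest being under the 0.75 of the bound.

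**Figure D3:**
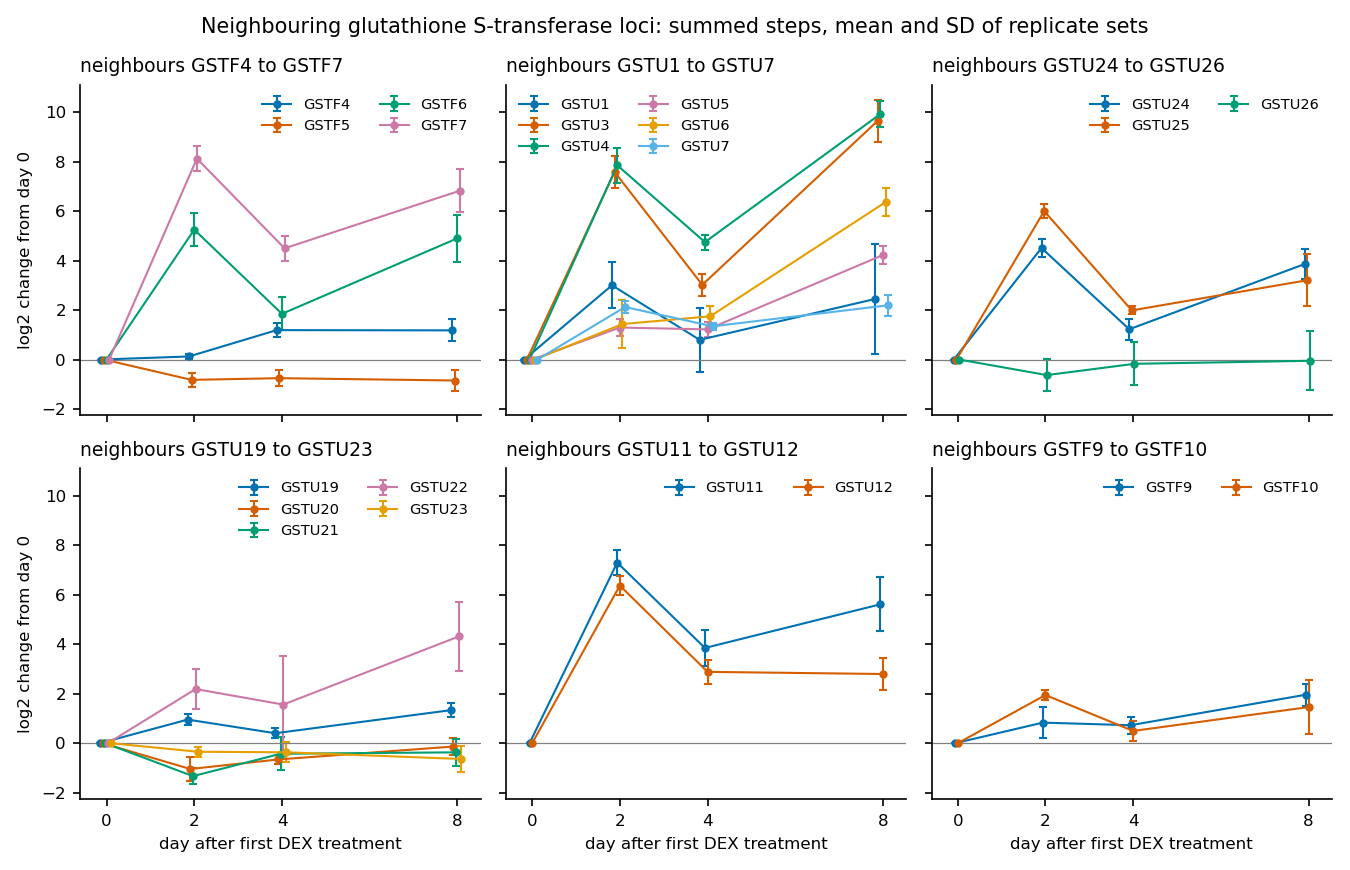
Log2 change from day 0 (vertical axis) at days 0, 2, 4 and 8 (horizontal axis) for neighbouring loci, as the sum of the steps within each replicate set. Points are the mean and bars 1 SD of 4 sets, but of 3 sets for GSTU20 at days 4 and 8. GSTF7 reaches 8.13 at day 2 while its neighbours GSTF4 and GSTF5 stay at 0.12 and -0.82, and GSTU24 and GSTU25 move while GSTU26 stays near 0.

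GSTU24 (AT1G17170) and GSTU25 (AT1G17180) can detoxify the explosive trinitrotoluene and are widely used as markers of chemical stress. GSTU25 gave 5.61, 6.15, 6.30 and 5.95 by day 2 (6.00 ± 0.26, SE, n = 4), -3.81, -4.23, -4.15 and -3.87 by day 4, and 0.19, 2.65, 0.91 and 1.13 by day 8, the last not called without replicate 2 (0.78). GSTU24 gave 4.19, 4.29, 5.01 and 4.55, then -2.39, -3.35, -3.71 and -3.70, then 2.60, 3.12, 2.69 and 2.13. Next to them GSTU26 (AT1G17190) was called at no step, with fitted changes of -0.63, 0.46 and 0.12. GSTU11 (AT1G69930) and GSTU12 (AT1G69920) form a pair. In GSTU11 the arrays read 7.08, 6.77, 7.96 and 7.40 (7.30 ± 0.34, SE, n = 4), then -3.41, -3.87, -3.46 and -3.06, then 3.50, 1.99, 1.05 and 0.50. Those of GSTU12 read 5.88, 6.31, 6.66 and 6.64, then -3.55, -3.69, -3.49 and -3.23. In the last step GSTU12 had no common sign, with 1.40, 0.15, -0.85 and -1.04.

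GSTU9 (AT5G62480) has no neighbouring member. It gave 8.86, 8.14, 7.82 and 7.96 by day 2 (8.19 ± 0.30, SE, n = 4), -3.17, -4.39, -4.34 and -4.62 by day 4, and 1.95, 4.02, 3.00 and 3.33 by day 8. It was above background on no channel of day 0 and on all 6 of day 2. By the processed signals it was at least 168-fold above day 0 at day 2 and at least 85.9-fold above it at day 8. Over 13 alternative settings the first step of GSTU9 lay between 4.65 and 8.50, the lowest being under the 7.39 of the first bound. GSTU10 (AT1G74590), likewise below background at day 0, gave 4.68, 3.03, 5.03 and 4.84 (4.39 ± 0.42, SE, n = 4), then -1.33, -2.77, -1.90 and -3.86, then 3.89, 3.81, 2.07 and 1.69. By the processed signals its first step had a bound of at least 4.22-fold. Over 13 alternative settings that step of GSTU10 lay between 0.62 and 4.65, the lowest being under the 2.08 of the bound. GSTU15 (AT1G59670) gave 2.24, 1.84, 2.56 and 1.87 by day 2, at least 1.83-fold by the processed signals. Over 13 alternative settings that step lay between 0.12 and 2.22, the lowest being under the 0.87 of the bound. GSTU15 gave 0.24, -0.57, -0.56 and -2.22 by day 4 without a call, and 2.44, 1.93, 1.12 and 0.62 by day 8.

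Among 5 members that lie close together, GSTU19 to GSTU23, values differed in sign. GSTU19 (AT1G78380), an abundant and broadly active tau enzyme, gave 0.63, 0.98, 1.16 and 1.05 by day 2, -0.47, -0.51, -0.53 and -0.70 by day 4, and 1.20, 1.16, 0.78 and 0.59 by day 8. Its first call was lost without the arrays of replicates 3 and 4 of that step (0.81) and its last without replicate 2 (0.83). GSTU20 was lower at day 2, as given above, and read 1.20, 0.29 and 0.00 by day 4, where the spot of replicate 3 was marked as an outlier and left out, and 0.58, 0.84, 0.65 and 0.15 by day 8. GSTU21 (AT1G78360) gave -1.55, -1.52, -0.86 and -1.40 by day 2, where it was above background on none of 6 channels. By the processed signals it was at least 1.90-fold lower there. Over 13 alternative settings that step of GSTU21 lay between -1.53 and -0.18, the smallest fall being short of the 0.93 of the bound. By day 4 GSTU21 gave 1.55, 0.41, 1.13 and 0.53, a call that was lost in 4 of 13 alternative settings and that amounts to at least 1.05-fold. GSTU22 (AT1G78340), below background at day 0, gave 2.70, 2.06, 2.90 and 1.11, then -1.79, 1.78, -0.63 and -1.87, then 3.04, 2.16, 2.37 and 3.44. Its first step has no fold, as its level at day 2 was under the floor, and the call there was lost without replicate 3 (1.93). GSTU23 (AT1G78320) was called at no step, its fitted changes being -0.35, -0.02 and -0.27.

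GSTU16 (AT1G59700) and GSTU17 (AT1G10370, also ERD9) had their largest change in the last step. GSTU16 was called at the first and last steps, with fitted changes of 1.18, -0.16 and 1.69. GSTU17, which takes part in light and drought responses, was called at the last step only, with 1.50, 1.93, 1.82 and 1.24. Its neighbour GSTU18 (AT1G10360) was called at none, with -0.55, 0.43 and 0.34. The remaining members without a call at any step were GSTU8 (AT3G09270; -0.17, 0.75 and 0.62), GSTU27 (AT3G43800; 0.59, 0.20 and 0.23) and GSTU28 (AT1G53680; 0.03, 0.10 and -0.11). With GSTF5, GSTU18, GSTU23 and GSTU26 they make 7 of 39 tested members that were called at no step, and 32 were called at 1 or more.

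Most members lie next to another one. With at most 1 other entry of the gene table between neighbours there were 9 runs holding 26 members, and 15 members lay outside runs. Counting protein-coding entries alone gave 8 runs with 27 members, because GSTU7 then joined GSTU1 to GSTU6 and GSTU19 to GSTU23 became 1 run. From day 0 to day 2 the fitted changes ranged from -0.82 to 8.13 in the run of GSTF4 to GSTF7, from -0.63 to 6.00 in GSTU24 to GSTU26, and from 1.29 to 7.86 in GSTU1 to GSTU6. The pair GSTU11 and GSTU12 lay closer, with 7.30 and 6.38, and so did GSTU17 and GSTU18, with -0.27 and -0.55. The runs of GSTF4 to GSTF7 and of GSTU24 to GSTU26 thus held members with steep changes beside a member called at no step.

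Among all 20906 loci ranked by their change from day 0 to day 2, 5 members were among the 50 highest, 8 among the 100 highest and 10 among the 200 highest. GSTF7 was at place 10, GSTU4 at place 15 and GSTU11 at place 28. GSTU9 and GSTU3 were placed at 9 and 18 by ratios over a day 0 signal that was not well above background, so their places are uncertain, and the counts among the highest loci include them. From day 4 to day 8 only GSTU3 (place 12) was among the 50 highest, with GSTU4 (53) and GSTU6 (86) next. The ranks describe the values that chose the family.

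At day 0, 31 of 41 members were above background on all channels and 9 on none (GSTF13, GSTU1, GSTU2, GSTU3, GSTU9, GSTU10, GSTU14, GSTU15 and GSTU22). At day 2 those on none were 4 (GSTF13, GSTU2, GSTU14 and GSTU21), at day 4 none, and at day 8 only GSTF14. At day 8, 34 members were above background on all 4 channels. GSTU2 and GSTU14 were above background on no more than 1 channel of any day. Some calls were lost when the scanner intensities of 10 arrays were processed by normexp and loess, an alternative that changes background, normalisation and the number of arrays together. There, each call of GSTU1, GSTU10 and GSTU15 at a single step was lost. GSTU10 then gave 0.62 by day 2, GSTU1 gave 0.33 and GSTU15 gave 0.12. Lost in the same way were the call of GSTF13 by day 8 (0.47), those of GSTF11 by day 2 (-0.64) and day 4 (0.49), that of GSTF14 by day 2 (-0.63), those of GSTU22 by day 2 (0.27) and day 8 (0.71), those of GSTU21 by day 2 (-0.18) and day 4 (0.13), that of GSTU6 by day 2 (0.63), that of GSTF12 by day 4 (0.66), that of GSTU13 by day 8 (0.32) and that of GSTU19, a bright locus, by day 2 (0.82). In none of them did the sign turn.

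The last step differed between the slides that held it. Over the 39 members the median from day 4 to day 8 was 1.42 on the slide of replicates 1 and 2 and 0.78 on that of replicates 3 and 4, and 31 members were higher on the former. All loci gave -0.09 and -0.08. From day 2 to day 4 the corresponding medians were -0.16 and -0.83 for members and 0.04 and 0.06 for all loci. Each slide held other replicate sets, so slide and set cannot be told apart.

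Genes that work with the GSTs changed to different degrees. Of 12 other detoxification enzymes and exporters, 12 were called higher by day 2 (median 5.34), 9 lower by day 4 (median -2.41), and 10 higher and 1 lower by day 8 (median 2.12). UGT73B4 and UGT73B5, glucosyltransferases, gave 6.94 and 6.76 by day 2, and the multidrug exporters DTX4 and DTX1 gave 6.75 and 6.57. The 1 gene lower at day 8 was DTX4, with -1.56. These genes were listed with earlier results of the arrays known, as the members were.

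Of 13 GSTs of other classes, 2 were called higher by day 2, 1 lower by day 4 and 3 higher by day 8, with medians of -0.06, 0.01 and -0.16. GSTL1, a lambda class GST, was the one that moved as the steep members did, with 5.77, -4.76 and 4.53. DHAR1, a dehydroascorbate reductase, was called only at the last step (2.09). GSTZ1, a zeta class enzyme of tyrosine breakdown, was called higher at the first (1.01) and last (0.88).

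Of 15 genes of glutathione synthesis and turnover, 4 were called higher by day 2, 1 lower by day 4 and 6 higher by day 8. GSH1 and GSH2, which make glutathione, were not called at any step, with 0.27 and 0.62 by day 2. These and the other genes without a call that are named for the lists were picked after their values were seen. GGCT2;1, which breaks glutathione down in the cytosol, gave 2.34, -1.40 and 5.01, and GGT1, which acts on it outside the cell, gave 1.88, -0.76 and 1.48. Of 4 vacuolar conjugate transporters ABCC3 was called at each step, with 2.43, -2.03 and 1.51, and ABCC4 at the last (1.28). ABCC1 and ABCC2 gave 0.13 and 0.33 by day 2 and were called at none. Of 7 regulators in the list of TGA factors and their partners, 3 were called higher by day 2. They were the NAC factors ANAC102 (4.10), ANAC032 (2.54) and ATAF1 (1.53). The partner SCL14 (0.60) and the TGA factor TGA6 (0.18) were not called.

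**Figure D4:**
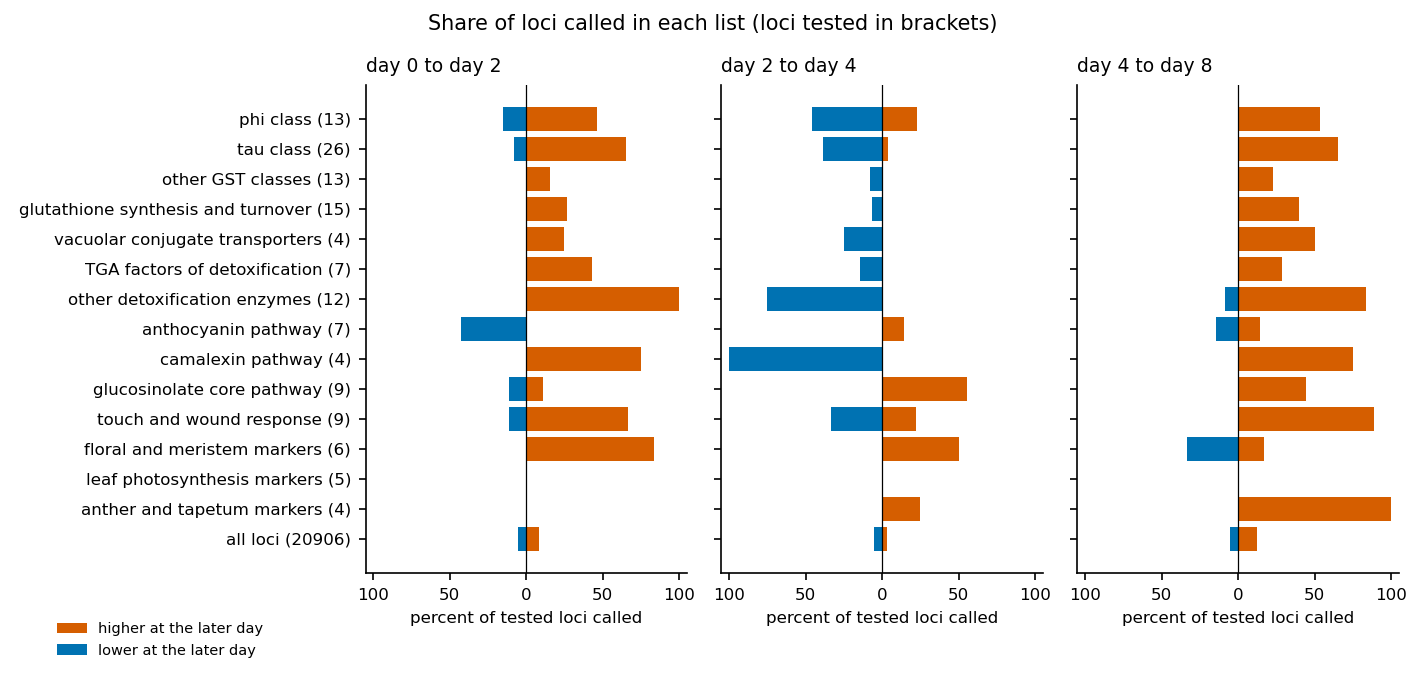
Percent of tested loci called higher (orange, to the right) or lower (blue, to the left) at the later day of each step, for each list of genes (vertical axis, number tested in brackets) and for all loci. The tau class, the other detoxification enzymes and the camalexin pathway have most of their loci called higher in the left panel, as have the floral markers (5 of 6) and the touch and wound genes (6 of 9), and in all loci 8.47% were called higher and 5.42% lower there.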

How the data were processed

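Transcripts were measured on 12 Agilent arrays of 2 colours. Per probe, the table deposited for the series gives the authors' log10 ratio of Cy5 over Cy3, background subtracted and dye normalised by Feature Extraction 10.5.1.1. The deposited scanner files hold processed and median intensity and the intensity of local background of both channels, with quality marks (other) of 0 or 1. The array was designed on TAIR8, and symbols came from a TAIR10.1 gene table that held 99.3% of tested loci. The software with which the authors combined replicates was not used here. Precision is limited by how many arrays there were.

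Ratios of the 12 arrays were turned to later over earlier day by the dyes of the labels and converted to log2. Same-step arrays correlated at 0.661 to 0.894, and those of the first step with those of the second at -0.596 to -0.48, the shared extract being on opposite sides. The scanner files of 10 arrays matched the table (tolerance 0.0001), while in replicates 3 and 4 of day 0 to day 2 only 16.3% and 20.2% of probes did, so that their marks were not used. Probes well above background in at least 50% of channels of 1 day were kept (28247 of 43643), outlier spots of the 10 matching arrays were left out (23 to 110 an array, but 1340 in replicate 2 of day 4 to day 8), and the brightest probe stood for a locus. Each step had 1 coefficient in the fit (limma 3.58.1, R 4.3.3), beside a dye term and an intensity trend (8 residual degrees of freedom, 12 after moderation). Adjusted p-values were those of Benjamini and Hochberg over all probes. The fit was tested on simulated data. Bounds came from processed signals scaled between arrays (Aquantile), each dim level being raised to the lowest signal marked as measured where it lay under that signal. They hold for these signals only, and alternative settings gave some changes below them. The labels give replicate numbers and the methods describe independent sets of samples, so equal numbers were taken as 1 set, which neither source states. Residuals of same-numbered arrays of different steps correlated at -0.367 to -0.036 (12 pairs), and those of other pairs at -0.234 to 0.303 (36 pairs). The former include pairs of the first and last step, which share no extract, at -0.315, -0.199, -0.224 and -0.285. The members and all gene lists were chosen with earlier results of these data known. Arrays were given for the 24 members with the largest changes called in 1 direction on 4 of 4 arrays, for most of their neighbours and for members with a stated role. At some steps of GSTF4, GSTF11, GSTF13, GSTU17 and GSTU21 the arrays were not all listed, and GSTF5, GSTU23 and GSTU26 were given as fitted changes. Of the lists at most 4 called genes a step were named.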

Additional observations from a re-analysis of the deposited data

Results flagged for a closer look

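In 8 of 122 groups of 4 arrays 1 array lay far from the others by Dixon's test, where chance alone gives 1 in 20. A group whose other ratios are exactly 0, as in GSTF13, is set apart by any remaining value, so the share cannot be weighed against that rate. GSTU2 from day 0 to day 2 and GSTU14 from day 4 to day 8, which did not pass the filter, had such groups too and are not among the 8. In GSTF5 from day 0 to day 2 it was replicate 1 with -1.23, the others lying between -0.75 and -0.65. GSTF6 from day 2 to day 4 gave -2.71 in replicate 1 and -3.69 to -3.57 in the others. For GSTF11 from day 4 to day 8 replicate 2 gave 1.11, against -0.75 to -0.55, on the array with 1340 outlier spots. GSTF13 was set apart at each step, by 0.25 in replicate 4 and by 0.66 in replicate 1 where the others were exactly 0, and by 1.61 in replicate 2 from day 4 to day 8 against 2.61 to 2.64. GSTU6 from day 2 to day 4 gave -0.68 in replicate 4 and 0.54 to 0.71 in the others. GSTU18 at the same step gave 0.24 in replicate 1, against 0.47 to 0.51.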

How the results depend on the processing

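Members were called 27, 20, 24 and 30 times in the 3 steps and the summed change. With a replicate block the counts were 27, 19, 24 and 30, and with the slide as a block 27, 20, 24 and 30. Leaving out 1 replicate at a time gave 26 to 30, 18 to 21, 18 to 25 and 26 to 30. Normexp and loess of the scanner intensities of the 10 matching arrays gave 18, 15, 18 and 22. As planned, that fit had used all spots and gave 17, 10, 9 and 11, but its fitted background SD reached 3950 intensity units on arrays with a few spots far below their local background, and its ratios correlated with the table at as little as 0.186. After this was seen, spots more than 50 units below it were left out, which brought every correlation to at least 0.793. The tau median from day 0 to day 2 was 0.66 under this alternative, 1.36 without a filter on dim probes and 1.52 without the 2 arrays that did not match, a setting added after seeing the data. From day 2 to day 4 it was -0.18 under normexp and loess and -0.36 without the filter, and -0.71 to -0.23 when 1 replicate was left out, the value closest to 0 being that without replicate 4. From day 4 to day 8 it was 0.65 under normexp and loess. The phi median from day 0 to day 2 was 0.31 under normexp and loess and 0.32 without the 2 arrays. From day 2 to day 4 it was -0.10 under normexp and loess, -0.24 without replicate 3 and -1.30 without replicate 4. The cause of these shifts was not tested. Of 71 member steps called, 45 kept their call in all 13 alternatives and 26 lost it in 1 or more, and 8 others gained one. None of the 71 changed sign in any of them. Of the members called from day 2 to day 4, 20.0% were higher, against 6.7% under normexp and loess, and of all loci called from day 0 to day 2, 61.0% were higher, against 79.4%.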
